A study of Mus musculus with 4 samples.

Results

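The genes described here are the Toll-like receptors, their co-receptors, adaptors and kinases, the NOD and inflammasome sensors with their partners, and Tmem173, which encodes STING. Of 40 genes named by symbol, 39 had a normalised read count of at least 10 in 2 or more of the 4 libraries, among 12463 such genes in a deposited set of 23420. The values come from RNA-seq of CD11b and CD200R1 positive myeloid cells that were sorted by flow cytometry from orthotopic squamous cell carcinomas of the skin of FVB/N mice. The WT group holds 2 libraries labelled wild type. The EpiKO group holds 2 libraries labelled K14Cre;CD200fl/fl, in which a Cre recombinase under the keratin 14 promoter removes Cd200 from keratinocytes, so the sorted myeloid cells are not the cells in which it acts. The single comparison, EpiKO against WT, asks which transcripts of CD200R1 positive cells differ between these genotypes. CD200 on the tumour cells was not measured in these libraries. Whether a replicate is a mouse, a pool or a repeat library is not in the labels. The p-values therefore measure the spread between these libraries alone, and it may be technical.

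Toll-like receptors recognise microbial products and some molecules of damaged cells, either at the cell surface or, for nucleic acids, inside endosomes. Adaptor proteins with a TIR domain carry the signal to IRAK kinases and on to NF-kB and interferon regulatory factors. Inflammasomes are cytosolic complexes in which a sensor, usually through the adaptor ASC, activates caspase-1, which matures interleukin-1 beta and interleukin-18 and cleaves gasdermin D to open pores in the membrane. Macrophages and monocytes are the cells best known for both systems.

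Mefv was the only member that passed an adjusted p under 0.05 by limma. It encodes pyrin, the inflammasome sensor that responds when bacterial toxins inactivate RhoA. Its normalised read count read 1492 and 1342 in WT against 406 and 449 in EpiKO. Both EpiKO libraries lay far below both WT libraries, and the replicates of each group were close to one another. The mean fell 3.32-fold, from 1417 ± 106 to 427 ± 30.4 (SD, n = 2), for a log2 fold change of -1.73 (SE 0.121, 95% interval -2.04 to -1.42, adjusted p = 0.0329 limma, Benjamini-Hochberg). By p-value Mefv stood at rank 6 of the 12463 genes tested. Fewer cells that express a gene and less of its RNA per cell cannot be told apart in bulk libraries, here and below.

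Among the 39 members tested, 1 was called lower, none was called higher and 38 did not pass at an adjusted p under 0.05 (limma). Over all 12463 genes the same rule called 0.53% lower and 0.417% higher. By edgeR on the reads recovered from the deposited values 1 member was lower and none higher, where edgeR called 0.457% of all genes lower and 0.385% higher. By DESeq2 2 members were lower, Mefv and Casp4, and 1 higher, Tlr4, where DESeq2 called 3.12% of all genes lower and 3.73% higher. At an unadjusted p under 0.05 by limma there were 3 members in each direction, against 15.6% of all genes. The median log2 fold change of the tested members was 0.067, against -0.0021 over all tested genes. Of the members, 26 were above 0 and 13 below, where 49.7% of all tested genes were above 0. Both EpiKO libraries lay above both WT libraries for 8 members, where this held for 23.3% of all genes, and below them for 7, where it held for 23.8%. The 95% interval of the log2 fold change stayed between -1 and 1 for 32 members, a share of 82.1% against 69.6% of all tested genes.

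The call for Mefv needed all 4 libraries. Leaving out any 1 of them gave log2 fold changes between -1.80 and -1.65 and adjusted p-values between 0.0673 and 0.128 (limma), and without the mean trend in limma the adjusted p was 0.0596. Pyrin is also abundant in neutrophils, whose 11 markers with a row summed to 1543 and 3047 in WT and to 4532 and 2452 in EpiKO. These sums overlapped between the groups, but single markers went different ways. Outside EpiKO replicate 1 the largest of them was Csf3r, at 1154 and 1215 in WT against 514 and 1323 in EpiKO. Mmp8, a neutrophil collagenase, was at 167 and 222 in WT against 3757 and 847 in EpiKO and made up most of the sum of EpiKO replicate 1. Retnlg was lower in both EpiKO libraries, at 55.6 and 166 against 7.54 and 20.8, and neither gene passed by limma. S100a9, at 737, S100a8, at 459, and Cxcr2, at 113, were highest in WT replicate 2. So were the granule genes Ngp, at 85.7, and Ltf, at 30.3, against at most 25.5 and 18.9 in the other libraries. The granule genes Camp, Elane and Mpo were between 0 and 10.1 in every library. The 9 dendritic cell markers summed to 1545 and 785 in WT and to 146 and 272 in EpiKO, mostly through Cd207, a gene of Langerhans cells, in WT. Cd207 was at 1201 and 590.1 in WT against 23.7 and 23.6 in EpiKO and was the 1 marker of this list called, as lower (adjusted p = 0.0329 by limma, for a log2 fold change of -5.10). Both EpiKO libraries were also below WT for Ccr7, at 116 and 56.3 against 32.3 and 35.9, and for Flt3, neither of which passed by limma. The other 6 markers of the list overlapped between the groups, and Xcr1 and Clec9a, which mark the cross-presenting subset, were between 0 and 2.32. The part of these cells in the Mefv difference was not tested. WT replicate 1 stood apart by its keratinocyte markers, with a sum of 5406 against 46.3 to 113 elsewhere, and without it the log2 fold change of Mefv was -1.65.

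**Figure D1:**
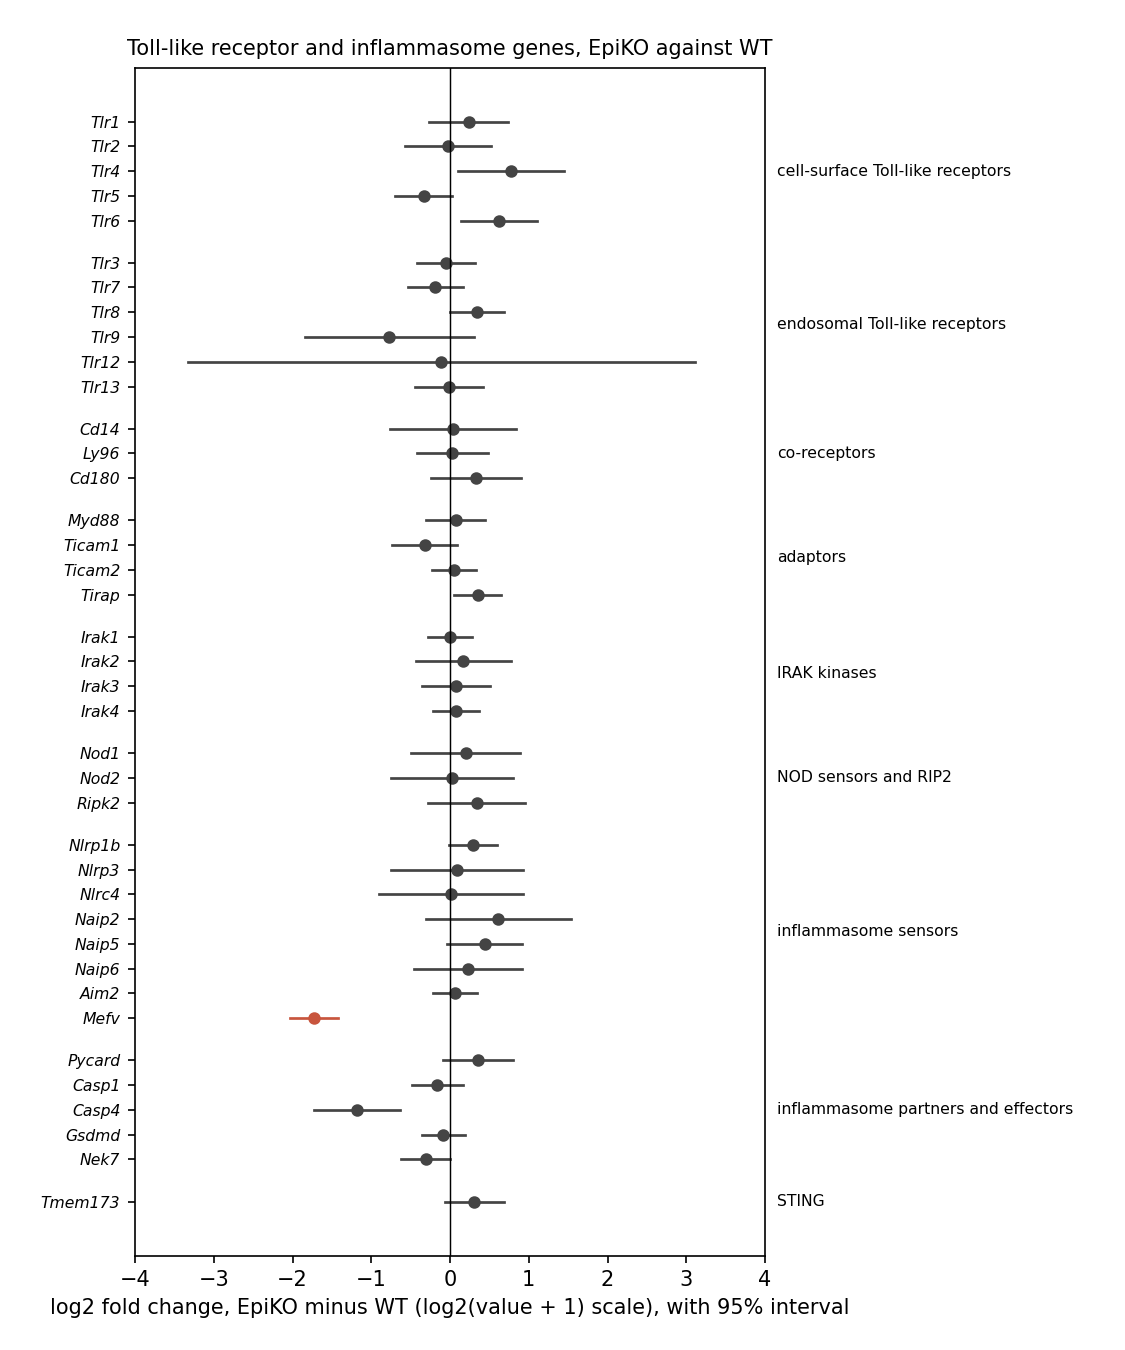
Log2 fold change of each of the 39 tested members, EpiKO minus WT on the log2(value + 1) scale, with its 95% interval from limma (lines), grouped by role. Mefv, in red, is the called member, at -1.73, and the intervals of most other genes cross 0.

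Casp4 was the next lowest member. It encodes the mouse caspase that binds lipopolysaccharide in the cytosol and cleaves gasdermin D without an inflammasome sensor. Its values were 916 and 633 in WT and 310.0 and 362 in EpiKO. The groups did not overlap, with WT replicate 1 the highest library, and the WT mean was 2.30 times the EpiKO mean. The log2 fold change was -1.18 (SE 0.212, 95% interval -1.72 to -0.64), which missed the threshold by limma at an adjusted p of 0.0854 and by edgeR at 0.0901, but passed by DESeq2 at 0.000448. Without WT replicate 1 it was -0.92, and over the fits that left out 1 library it lay between -1.45 and -0.92.

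Casp1 and Casp4 lie next to each other on chromosome 9 of mm10 and both on the plus strand, Casp1 from 5298517 to 5307265 and Casp4 from 5308828 to 5336783. Casp1 encodes the protease at the centre of inflammasomes. It stood at 879 and 832 in WT against 827 and 708 in EpiKO. The EpiKO libraries were just below the WT libraries, and the log2 fold change was -0.16 (95% interval -0.48 to 0.16, adjusted p = 0.631 by limma). Per kilobase of exon, Casp4 reached 0.421 and 0.307 of the Casp1 level in WT and 0.151 and 0.206 of it in EpiKO. The exon length merges all annotated transcripts, at 3710 bases for Casp4 and 1497 for Casp1. The size of this ratio depends on these lengths, so it does not settle which transcript was more abundant. Mefv lies on chromosome 16 from 3707218 to 3718097 on the minus strand, and neither Mefv nor Casp1 nor Casp4 shares exon sequence with another annotated gene.

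The bases upstream of these 3 genes and of Tlr2 are shown to print the called member Mefv, the next lowest member with its neighbour, and a receptor with NF-kB type matches. Tlr2 was picked after its matches and its log2 fold change near 0 were seen. They are from RefSeq on GRCm38.p6, the assembly of mm10, read 5′ to 3′ on the strand of the gene, and end before the first transcribed base of either RefSeq or GENCODE. Capitals mark matches to the kappa B motif of NF-kB, searched on both strands.
Mefv, chr16:3718125-3718374, minus strand: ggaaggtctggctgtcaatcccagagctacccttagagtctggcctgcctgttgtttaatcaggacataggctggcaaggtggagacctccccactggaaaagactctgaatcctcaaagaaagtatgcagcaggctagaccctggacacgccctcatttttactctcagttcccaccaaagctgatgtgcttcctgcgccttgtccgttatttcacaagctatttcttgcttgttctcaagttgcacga
Casp4, chr9:5308599-5308827, plus strand: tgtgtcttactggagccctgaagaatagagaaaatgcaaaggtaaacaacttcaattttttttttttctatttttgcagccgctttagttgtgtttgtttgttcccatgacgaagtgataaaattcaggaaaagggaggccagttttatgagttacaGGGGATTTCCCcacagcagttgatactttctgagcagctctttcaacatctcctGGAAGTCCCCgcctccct
Casp1, chr9:5298267-5298516, plus strand: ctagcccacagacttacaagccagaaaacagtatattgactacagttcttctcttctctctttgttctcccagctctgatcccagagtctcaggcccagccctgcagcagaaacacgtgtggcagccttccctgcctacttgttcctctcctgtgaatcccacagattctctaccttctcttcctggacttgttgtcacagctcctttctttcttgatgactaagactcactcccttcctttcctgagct
Tlr2, chr3:83841768-83841858, minus strand: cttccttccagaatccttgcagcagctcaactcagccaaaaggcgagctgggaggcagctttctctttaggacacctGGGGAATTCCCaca

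Upstream of Casp4, 2 overlapping kappa B matches formed a run of capitals and a match on the other strand formed the next, while the windows of Mefv and Casp1 held no match. The window of Tlr2 held overlapping matches of the same kind. Promoter windows of 300 bases, 250 before and 50 after a RefSeq start, were found for 32 of the 40 members, some with several starts. The kappa B motif was in 8 of the 42 windows of these members, which belong to 6 genes, and in 8.46% of the 32851 windows of all genes. GAGGAAGT, bound by PU.1, was in 6 of the 42 and in 3.20% of all windows, and TGANTCA, the AP-1 motif, in 1 of the 42 and in 7.81%. No window of Mefv, Casp4 or Casp1 held either of these. A match describes the letters only.

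The other inflammasome sensors did not pass. Nlrp3, the sensor of potassium loss and membrane damage, was among the most abundant members, at 6177 and 4719 in WT against 7802 and 4228 in EpiKO. The EpiKO libraries enclosed the WT libraries, and the log2 fold change was 0.09 (95% interval -0.75 to 0.93). Aim2, which binds double-stranded DNA, was nearly level in all libraries, at 704 and 762 in WT against 757 and 777 in EpiKO, with a log2 fold change of 0.07 (95% interval -0.21 to 0.35). Nlrp1b, the sensor cleaved by anthrax lethal factor, stood at 378 and 398 against 462 and 489. Its groups did not overlap, although the log2 fold change was only 0.29 (adjusted p = 0.342 by limma, SE 0.122).

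Nlrc4 and the NAIP proteins together detect flagellin and parts of bacterial secretion systems. Nlrc4, the shared signalling partner, varied more within groups than between them, at 459 and 283 in WT against 277 and 477 in EpiKO. Naip2 was at 1187 and 1595 in WT against 2966 and 1491 in EpiKO. The higher EpiKO mean of Naip2 rested on EpiKO replicate 1, since the other EpiKO library was within the WT range, and the log2 fold change of 0.61 (SE 0.357) became 0.12 without that library. Naip5, which binds flagellin, was at 453 and 556 against 779 and 595, for a log2 fold change of 0.44 (adjusted p = 0.351 by limma, SE 0.186). Its groups did not overlap, and EpiKO replicate 1 was again the highest. Naip6, the least abundant of the 3, was at 112 and 122 against 170.1 and 111. Naip and Nlrp1 genes are families of close copies that differ between mouse strains, and how multi-mapped reads were counted is not given in the sources used here, so these values are uncertain.

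The partners that sensors share also did not pass. Pycard, which encodes ASC, was at 1072 and 1287 in WT against 1716 and 1315 in EpiKO, for a log2 fold change of 0.35 (95% interval -0.09 to 0.80). Its direction was opposite to that of Mefv, and per kilobase of exon the Mefv level was 1.63 and 1.22 times that of Pycard in WT and 0.276 and 0.399 times in EpiKO. Merged over all annotated transcripts, the exons came to 3800 bases for Pycard and 3251 for Mefv. These lengths set the size of the ratio, so which of the genes was more abundant in WT is not settled by it. Gsdmd, the pore-forming gasdermin, was at 1794 and 1880 in WT against 1668 and 1798 in EpiKO, with a log2 fold change of -0.09 (95% interval -0.36 to 0.19). Nek7, a kinase that binds Nlrp3, was at 2356 and 2330 against 1748 and 2040. Both EpiKO libraries of Nek7 were below WT, by a log2 fold change of -0.31 (adjusted p = 0.314 by limma, SE 0.121). Pycard shares 485 bases of exon with a gene on the opposite strand and Nek7 118, and the strand setting of the counting is not given in the sources used here.

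**Figure D2:**
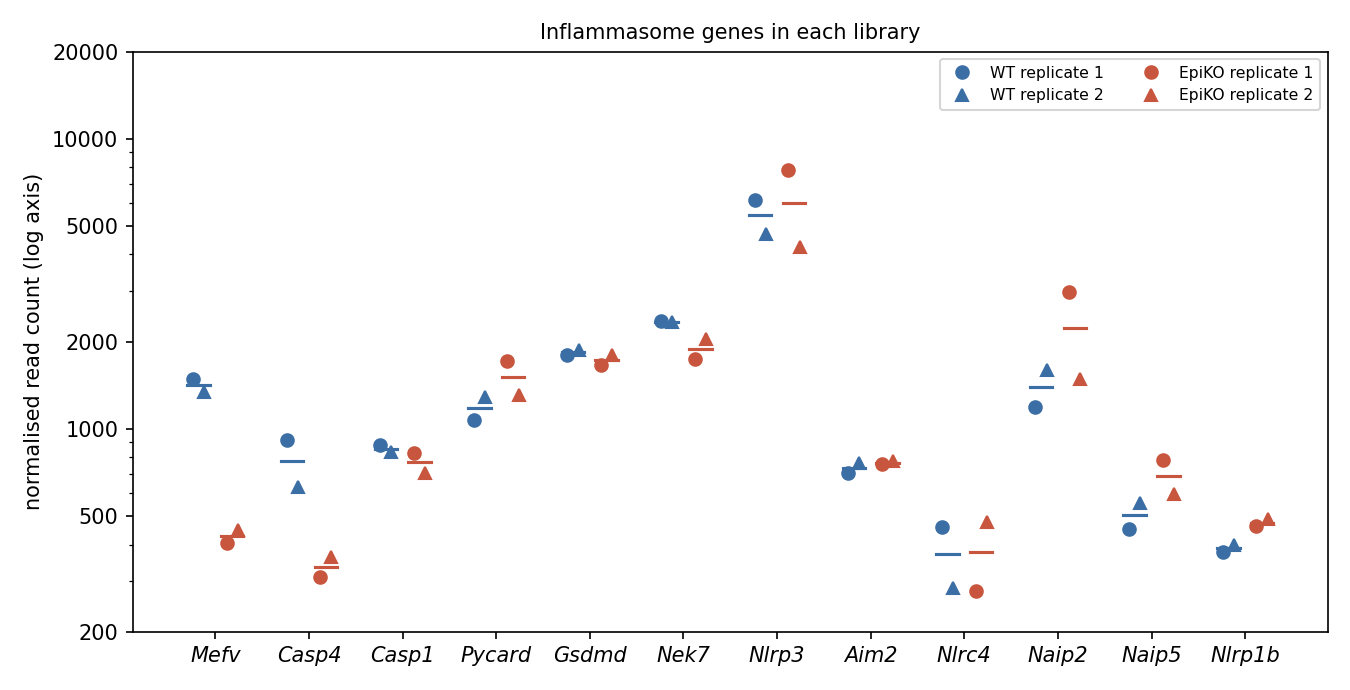
Normalised read count (log axis) of 12 inflammasome genes in WT replicates 1 and 2 (blue) and EpiKO replicates 1 and 2 (red), with a bar at each group mean. Mefv and Casp4 have both EpiKO points below both WT points by a wide gap, whereas Nlrp3, Nlrc4 and Naip2 spread within a group.

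Of the receptors at the cell surface, Tlr4 and Tlr6 had the largest positive log2 fold changes, and none passed by limma or edgeR, while DESeq2 called Tlr4 higher. Tlr4, the receptor for lipopolysaccharide, was at 1360 and 1466 in WT against 3136 and 1864 in EpiKO. Both EpiKO libraries were above WT, EpiKO replicate 1 by much more than EpiKO replicate 2. The log2 fold change was 0.78 (SE 0.260, 95% interval 0.10 to 1.45), with an adjusted p of 0.257 by limma, 0.241 by edgeR and 0.0466 by DESeq2, and 0.40 without EpiKO replicate 1. Tlr6, which pairs with Tlr2 to bind diacylated lipopeptides, was at 239.9 and 329 in WT against 449 and 417 in EpiKO. Its log2 fold change was 0.62 (adjusted p = 0.217 by limma, SE 0.191), with no overlap of the groups.

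Tlr2 and Tlr1 bind triacylated lipopeptides as a pair. Tlr2 was the most abundant receptor, at 9878 and 9378 in WT against 11557 and 7739 in EpiKO. The 2 EpiKO libraries lay on either side of WT, and the log2 fold change was -0.03 (95% interval -0.57 to 0.52). Tlr1 was at 1275 and 1553 against 1410.3 and 1946, with overlapping groups and a log2 fold change of 0.24 (SE 0.197). Tlr5, the flagellin receptor, was at 457 and 484 in WT against 343 and 404 in EpiKO. Its EpiKO libraries were the lower ones, by a log2 fold change of -0.34 (adjusted p = 0.345 by limma, SE 0.140).

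Endosomal receptors read nucleic acids or parasite profilin, and none of the 6 tested passed. Tlr7, a sensor of single-stranded RNA, was at 3387 and 3546 in WT against 2755 and 3363 in EpiKO, for a log2 fold change of -0.19 (95% interval -0.53 to 0.16). Tlr8, its neighbour on the X chromosome, was at 1776 and 2124 against 2593 and 2331. For Tlr8 both EpiKO libraries were higher, at a log2 fold change of 0.34 (adjusted p = 0.326 by limma, SE 0.136), while for Tlr7 both were lower. Tlr13, which recognises bacterial ribosomal RNA, was at 5108 and 6866 against 5767 and 5951, with both EpiKO libraries between the WT ones. Tlr3, the receptor for double-stranded RNA, was at 425 and 482 against 469 and 407, also with overlap.

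Tlr9 and Tlr12 differed most between replicates. Tlr9, the receptor for CpG DNA, was at 813 and 1119 in WT against 370.3 and 840.2 in EpiKO. The low value belonged to EpiKO replicate 1, and the log2 fold change of -0.77 (SE 0.416) became -0.18 without that library. Tlr12, which binds profilin, was at 101 and 39.5 in WT against 16.1 and 206 in EpiKO, so the EpiKO libraries differed 12.8-fold. Its log2 fold change was -0.11 with a 95% interval of -3.32 to 3.11, and the sign depended on the library left out. Tlr12 was also the tested member nearest to the minimum value of 10. Tlr11, its partner, failed that minimum and was not tested, with values of 0 in both WT libraries and of 1.08 and 1.89 in EpiKO, 3 reads in all, which is no more than the count of 3 reads taken as the floor.

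Co-receptors overlapped between the groups. Cd14, which hands lipopolysaccharide to the Tlr4 complex, was at 52878 and 34027 in WT against 53752 and 35015 in EpiKO. Each group held a high and a low library, and the log2 fold change was 0.03 (95% interval -0.77 to 0.83). Ly96, the MD-2 subunit that forms the binding pocket of Tlr4, was at 247 and 228 against 270.2 and 217, with a log2 fold change of 0.03 (95% interval -0.42 to 0.48). Cd180, a relative of Tlr4 that lacks a TIR domain, was at 1167 in WT replicate 1 and between 1802 and 1834 in the other 3 libraries.

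**Figure D3:**
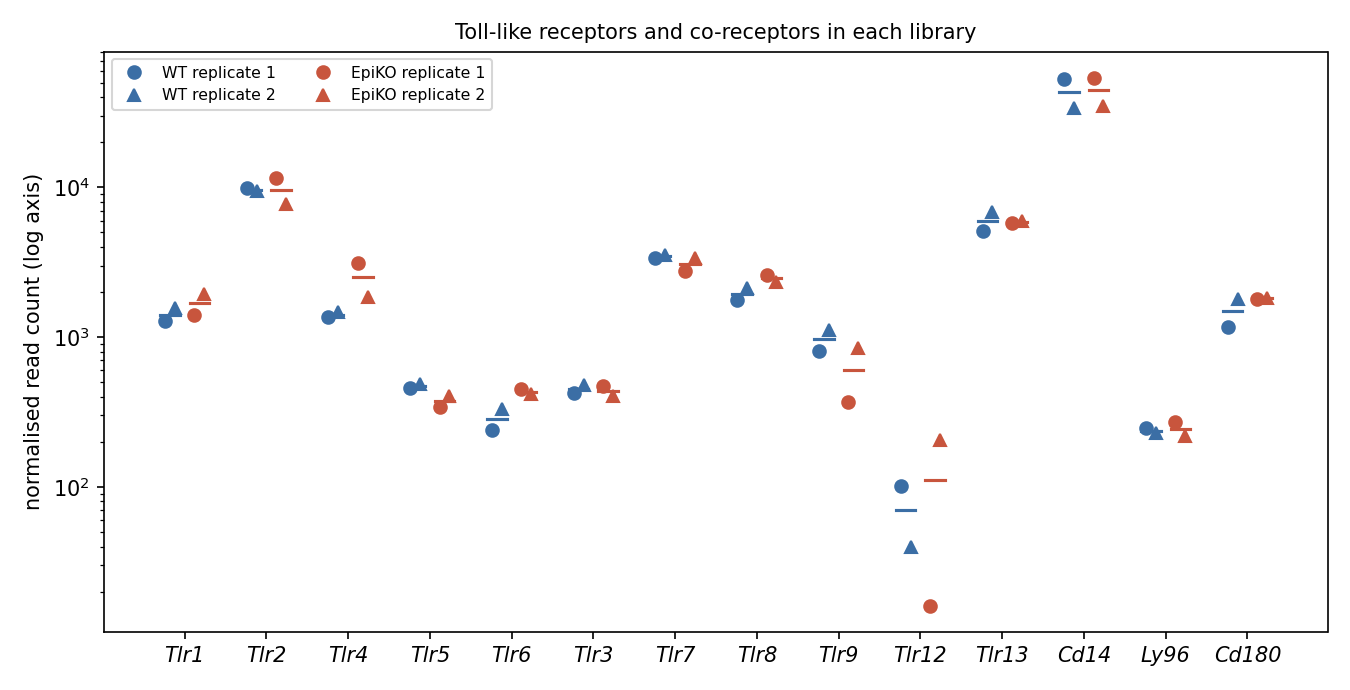
Normalised read count (log axis) of 11 Toll-like receptors and 3 co-receptors in WT replicates 1 and 2 (blue) and EpiKO replicates 1 and 2 (red), with a bar at each group mean. Cd14 has a high and a low library in each group, and Tlr12 spans from 16.1 to 206 within EpiKO.

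None of the 4 adaptors passed. Myd88, the adaptor of nearly all Toll-like receptors, was at 1590.2 and 1810 in WT against 1611 and 1976 in EpiKO, for a log2 fold change of 0.07 (95% interval -0.30 to 0.45). Tirap, which brings Myd88 to Tlr2 and Tlr4, was at 447 and 484 against 587 and 600.1, the groups without overlap and a log2 fold change of 0.35 (adjusted p = 0.246 by limma, SE 0.116). Ticam1, which encodes TRIF and serves Tlr3 and Tlr4, was at 602 and 564 against 409 and 529. Its EpiKO libraries were the lower ones, by a log2 fold change of -0.32 (adjusted p = 0.427 by limma, SE 0.162). Ticam2, the bridge between Tlr4 and TRIF, was at 807 and 752 against 780.5 and 831 and shares 838 bases of exon with Tmed7, so reads of that pair may be divided between them.

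The IRAK kinases did not separate the groups. Irak4, the first kinase of the chain, was at 926.1 and 926.3 in WT against 919 and 1035 in EpiKO. Irak1, which Irak4 phosphorylates, was at 2521 and 2651 against 2486 and 2707, for a log2 fold change of 0.0048 (95% interval -0.27 to 0.28). Groups overlapped for both genes. Irak2 was at 1374 and 864 against 1233 and 1220.1, with the spread in WT. Irak3, the IRAK-M form that restrains signalling in macrophages, was at 479 and 572 against 621 and 491, for a log2 fold change of 0.08 (95% interval -0.36 to 0.51).

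NOD sensors, which detect fragments of bacterial cell wall, were also without a difference beyond their spread. Nod2 was at 552 and 306 in WT against 446 and 391 in EpiKO, and Nod1 at 187 and 189 against 168 and 277. The spread of Nod2 was in WT and that of Nod1 in EpiKO. Ripk2, the kinase both use, was at 356 and 326 against 539 and 344, so its higher EpiKO mean came from EpiKO replicate 1, and its log2 fold change of 0.34 became 0.014 without that library. Tmem173, the adaptor of cytosolic DNA sensing, was at 2290.3 and 2614 in WT against 2741 and 3351 in EpiKO. Both EpiKO libraries were higher, with a log2 fold change of 0.31 (adjusted p = 0.402 by limma, SE 0.147).

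Levels of different genes were set side by side per kilobase of merged exon. That length counts the exons of all annotated transcripts, used in these cells or not, so the order is approximate. Cd14 was highest, with a mean of 25357 normalised reads per kilobase over the 4 libraries, and Tlr2 followed at 3198. Nlrp3 at 1413 and Tlr13 at 1376 came next and overlapped across libraries. The most abundant endosomal receptors were then Tlr7 at 799 and Tlr8 at 615. Mefv averaged 284, but ranged from 125 in an EpiKO library to 459 in a WT library. Low in the order stood Nod1 at 40.4, Tlr12 at 28.5 and Naip6 at 18.9. Of the 39 pairs of neighbours in this order, 4 had every library of the first gene above every library of the next, namely Cd14 over Tlr2, Tlr2 over Nlrp3, Nlrp1b over Nod1 and Naip6 over Tlr11.

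**Figure D4:**
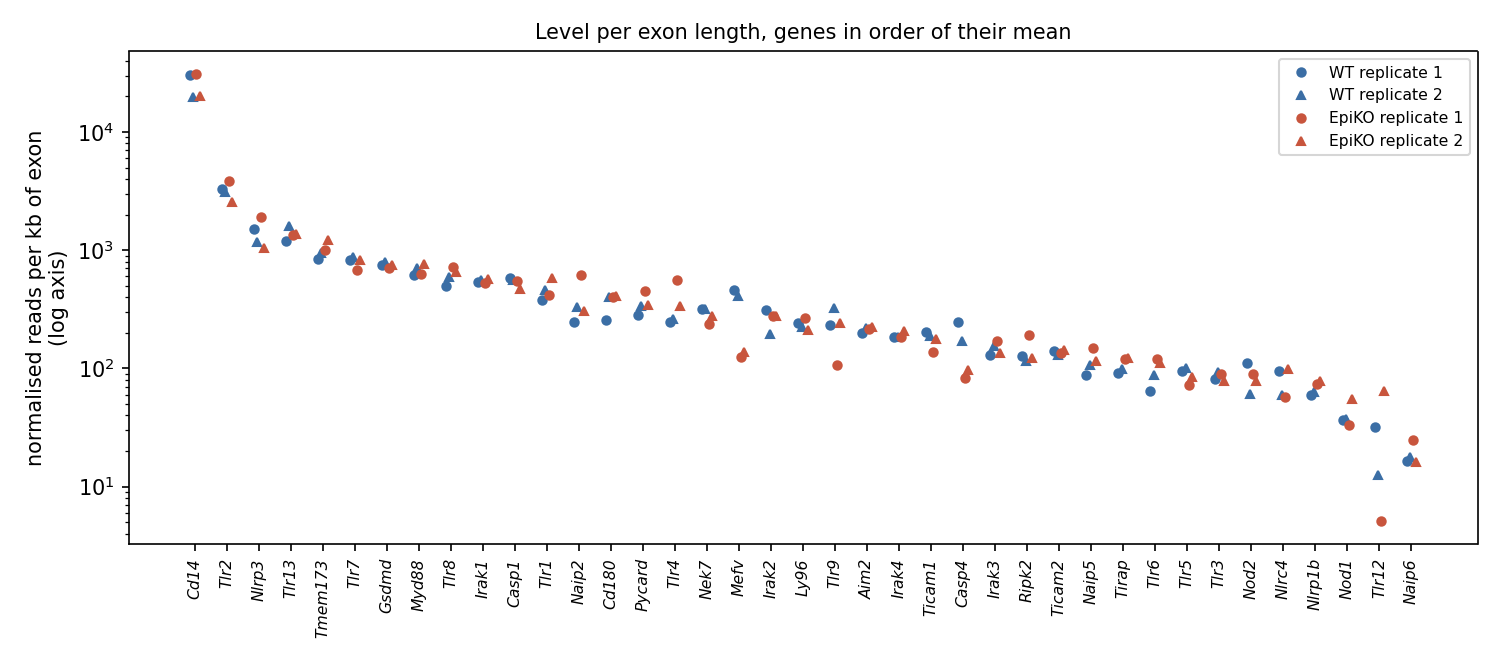
Normalised reads per kilobase of exon (log axis) of the 39 tested members in each library, in order of the mean over the 4 libraries. Cd14 and Tlr2 lie above the rest, and further down neighbours overlap except Nlrp1b over Nod1, with the WT and EpiKO points of Mefv and Casp4 apart.

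Beyond the members, 82 further genes of these pathways in 5 lists were looked at, of which 79 were tested. None passed over all genes by limma or by edgeR. At an unadjusted p under 0.05 by limma there were 21, a share of 26.6% against 15.6% of all tested genes. The lists were chosen with earlier results of these data known, so a higher share can follow from the choice. By DESeq2 2 were higher, Ikbke and Il1a, where it called 3.73% of all genes higher. DESeq2 called 6 lower, Traf3, Map3k8, Tnip1, Tnip2, Zc3h12a and Slc15a4, where it called 3.12% of all genes lower. The median log2 fold change of the 79 was 0.0043, against -0.0021 over all tested genes. Ikbke, a kinase that activates interferon regulatory factors, came nearest to the threshold. It was at 425 and 532 in WT against 1335 and 1058 in EpiKO, both well above WT, with a log2 fold change of 1.32 (adjusted p = 0.0535 by limma and 1.5e-06 by DESeq2, SE 0.177).

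Among 25 genes of signalling below the adaptors, Traf3, a ubiquitin ligase of the TRIF branch, was at 1324 and 1335 in WT against 902 and 754 in EpiKO (adjusted p = 0.0880 by limma and 0.00648 by DESeq2, for a log2 fold change of -0.69). The groups of Traf3 did not overlap. Map3k8, the kinase that starts the ERK arm, was at a log2 fold change of -0.68 (adjusted p = 0.142 by limma and 0.0468 by DESeq2). Peli1, a ubiquitin ligase for IRAKs, had a log2 fold change of -0.62. Of 16 tested brakes 11 had a negative log2 fold change, with a median of -0.14, where 6274 of all 12463 tested genes had a negative one. Tnip2 and Tnip1, partners of the deubiquitinase A20, were lowest by p-value, at -0.71 (SE 0.138) and -0.52 (SE 0.117), with adjusted p-values of 0.0955 and 0.128 by limma and of 0.00739 and 0.0472 by DESeq2. Zc3h12a, the RNase Regnase-1, was lower in both EpiKO libraries, at -0.80 on the log2 scale (adjusted p = 0.230 by limma and 0.0459 by DESeq2, SE 0.248), and between -1.08 and -0.51 with 1 library left out. Sigirr, an inhibitory receptor of the family, had a log2 fold change of 1.28, with 31.3 and 31.1 in WT against 68.9 and 86.9 in EpiKO.

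Among 19 tested inflammasome regulators and products, Il1a, the interleukin-1 alpha gene, was at 769.6 and 314 in WT against 2465 and 2039 in EpiKO (adjusted p = 0.107 by limma and 1.4e-05 by DESeq2, for a log2 fold change of 2.19 with SE 0.432). Every EpiKO library was above every WT library for Il1a, but not for Il1b, at 22636 and 11012 against 27988 and 21730, chosen after its values were seen. Pstpip1, which binds pyrin, was at 2908 and 3152 in WT against 2377 and 1886 in EpiKO, for a log2 fold change of -0.52 (adjusted p = 0.195 by limma, SE 0.148). Dfna5, another gasdermin, had a log2 fold change of -0.69 and the sensor gene Nlrp10 one of -1.70 (SE 0.591), from 81.1 and 141 in WT and 54.9 and 18.9 in EpiKO. Without EpiKO replicate 2 the value of Nlrp10 was -0.95, and over the fits that left out 1 library it lay between -2.44 and -0.95.

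Receptor transport and DNA or RNA sensing held no gene called by limma. Of 9 transport and cofactor genes, Slc15a4, an endosomal transporter needed for Tlr7 and Tlr9 signalling, had the smallest p and was at 1522 and 1435 in WT against 853 and 1064 in EpiKO (adjusted p = 0.128 by limma and 0.0287 by DESeq2, for a log2 fold change of -0.63 with SE 0.142). The EpiKO libraries of Slc15a4 were below WT. Lbp, which carries lipopolysaccharide to Cd14, had a log2 fold change of 0.98, or 0.59 without WT replicate 2, Hmgb1 one of -0.17 and Tmed7 one of 0.14. Of 10 cytosolic nucleic acid genes, Trex1, a DNase that clears cytosolic DNA, had a log2 fold change of -0.42, and Mavs, the adaptor of RNA sensing, one of 0.40. Ddx58, which encodes RIG-I, was at -0.25 and Enpp1, which degrades cyclic GMP-AMP, at 0.15.

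**Figure D5:**
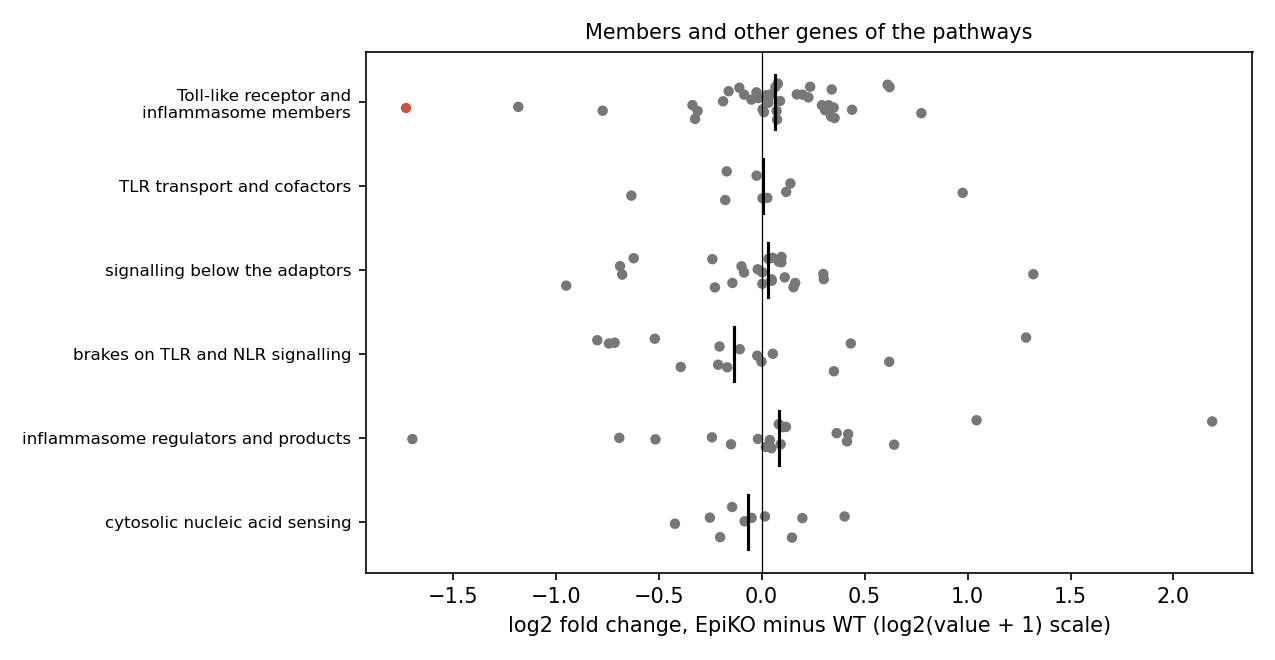
Log2 fold change, EpiKO minus WT on the log2(value + 1) scale, of each tested gene (points, spread vertically for legibility) among the members and in the 5 further lists, with a black bar at each median. Medians lie near 0, from -0.14 for the brakes to 0.083 for inflammasome regulators and products, and the red point is Mefv.

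Depth was between 15884132 and 21244158 reads assigned to genes per library, and 1 read was worth a value of 0.841 to 1.16. The sorted identity was visible in all 4 libraries, with Itgam, the CD11b gene, between 26151 and 40692 and Csf1r between 45316 and 70480. Cd200r1 was at 318 and 293 in WT against 1101 and 612 in EpiKO (adjusted p = 0.115 by limma, for a log2 fold change of 1.43). Markers of T and natural killer cells summed to between 178 and 1907, mostly through Cd4, which macrophages can also express, and Cd3e was between 0 and 2.32. Mast cell markers were highest in WT replicate 1, at 289, and 6 fibroblast markers summed to between 17941 and 31236 with overlap between the groups. The part of these transcripts in the results was not tested.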

How the data were processed

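RNA was measured in 2 WT and 2 EpiKO libraries prepared by poly-A selection, per the labels' protocols. The submitters' processing notes name mm10 and the tools STAR 2.5.2b, featureCounts 1.5.0-p3, bcl2fastq 2.17 and DESeq2. Annotation, strandedness and multi-mapping rules are not stated there. The authors deposited a signal per gene, read counts scaled by a size factor for each library. Judged from the values, 100% of them were integer multiples of a smallest step within 1e-06 reads, which gave back the counts.

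Values were tested as log2(value + 1) with limma 3.58.1 in R 4.3.3 (trend, robust) over genes with at least 10 in at least 2 libraries, with no covariate. Fold changes on this scale understate changes of low genes. Calls required a Benjamini-Hochberg adjusted p under 0.05, two-sided. Intervals are 95% moderated ones. An exact permutation test of 2 against 2 cannot give a p below 0.333. edgeR 4.0.16 (quasi-likelihood, TMM) and DESeq2 1.42.0 (Wald) on recovered reads were alternatives, as were other pseudocounts, filters, scaling, trend, threshold, and leaving out each library, where the lone library left is assumed to vary as the other group does.

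Members and lists were chosen with earlier results of these data known. All members were named by role, and of each further list the 4 genes with the smallest p. Exon lengths and coordinates are from GENCODE M21 on mm10, and upstream sequences from RefSeq. Of the members, 9 share exon bases with a gene on the opposite strand (Tlr3, Cd180, Myd88, Tirap, Irak2, Irak3, Irak4, Pycard and Nek7), whose reads may be mixed if strand was not used.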

Additional observations from a re-analysis of the deposited data

How the results depend on the processing

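Over all tested genes, 52 were called higher and 66 lower. Without the trend in limma the counts were 13 and 18, at an adjusted p under 0.1 they were 226 and 202, by DESeq2 465 and 389, and with 1 library left out 0 to 4 and 0 to 5. Among the members, 1 was lower and 0 higher. Without the trend, and in every fit that left out 1 library, 0 members were lower and 0 higher, where Mefv had adjusted p-values of 0.0596 and of 0.0673 to 0.128 (limma). At a threshold of 0.1 there were 2 lower, and by DESeq2 2 lower and 1 higher. Of the further lists, 0 genes were called in either direction, against 1 higher without the filter on low values, 1 higher and 2 lower at a threshold of 0.1, and 2 higher and 6 lower by DESeq2. The median log2 fold change of the members, 0.067, was 0.039 with equal library totals, 0.076 by edgeR, 0.078 by DESeq2, and 0.041 to 0.094 with 1 library left out. The cause of these shifts was not tested.

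Of 507 member values under the alternatives, 461 kept their direction and their side of the threshold and 38 changed sign, in 17 of 39 members, all with a log2 fold change of at most 0.227 in size. With equal library totals Irak1 was at -0.024, Nod2 at -0.0051 and Nlrc4 at -0.017. By edgeR Tlr2 was at 0.0017, Tlr12 at 0.68 and Nod2 at -0.034, and by DESeq2 at 0.0031, 0.67 and -0.033. With 1 library left out the ranges were -0.31 to 0.26 for Tlr2, -0.15 to 0.052 for Tlr3, -1.91 to 1.69 for Tlr12, -0.23 to 0.20 for Tlr13, -0.29 to 0.35 for Cd14, -0.13 to 0.19 for Ly96, -0.075 to 0.22 for Myd88, -0.0027 to 0.098 for Ticam2, -0.057 to 0.066 for Irak1, -0.16 to 0.50 for Irak2, -0.090 to 0.25 for Irak3, -0.011 to 0.16 for Irak4, -0.16 to 0.56 for Nod1, -0.40 to 0.45 for Nod2, -0.35 to 0.53 for Nlrp3, -0.38 to 0.40 for Nlrc4 and -0.082 to 0.54 for Naip6. No paired analysis was possible because the labels give no pairing, litter or batch. They give no replicate numbers either, and those used here follow the order in which the samples are listed. With 2 libraries a group, small differences of the members could not be told from the spread between libraries.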
